A study of Mus musculus with 27 samples.

Results

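The genes described here are antiviral interferon-stimulated genes (ISGs), the transcripts that type I interferon switches on against viruses, in mouse bone marrow-derived macrophages (BMDMs, primary macrophages grown in culture from bone marrow of wild type C57/BL6 mice). A list of 54 symbols was matched to the gene symbols of the deposited table, and 52 of the 54 were found among its 45070 genes. Mnda and Pyhin1 had no row under those symbols. Of the 52 genes, 49 had enough signal to be tested.

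Chromatin-associated RNA, the RNA that stays with chromatin when nuclei are lysed and that is rich in transcripts still being made, was sequenced in 27 samples of 9 groups with 3 replicates each. All cells, untreated ones included, were kept for 1 h with DMSO, the solvent of the kinase inhibitors that the study tested in other samples. The groups were untreated BMDMs, BMDMs with lipopolysaccharide (LPS) for 0.5, 1, 2 or 4 h, and BMDMs with interleukin-4 (IL-4) for 0.5, 1, 2 or 4 h, either agent at 10 ng/ml. There was a single untreated group and none matched to each time. In changes against untreated, the agent and the hours since it was added therefore cannot be told apart. In the study these courses served to find kinases whose own genes LPS or IL-4 switches on, as candidates for inhibitors.

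LPS, a part of the bacterial outer membrane, is sensed by the receptor TLR4, which through the adaptor TRIF and the kinase TBK1 activates the transcription factor IRF3 and with it the gene of interferon-β. Secreted interferon-β then acts back on the same cells through its receptor and the kinases JAK1 and TYK2, and activates a transcription factor complex that binds the interferon-stimulated response element (ISRE) in ISG promoters. Some ISGs can also be switched on by IRF3 directly, before interferon is made. IL-4 signals through STAT6 and drives a separate macrophage programme.

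Values are normalised read counts, that is reads per gene scaled between libraries by the authors on invariant genes and rounded. A gene is said to be called where its change on the log2(value + 1) scale had a limma p of 0.05 or less after Benjamini-Hochberg adjustment over all 13901 genes tested. The values do not carry the sequencing depth, which is therefore unknown, so errors come from the 3 replicates of a group. The labels do not say whether replicates came from separate mice or cultures, and p-values measure only the spread between these samples, which may be technical. Macrophage markers summed to between 8819 and 16840 normalised read counts per sample, while T cell, B cell and plasmacytoid dendritic cell markers summed to at most 3, 6 and 6, neutrophil markers to at most 28, erythroid markers to at most 1 and fibroblast markers to at most 207. The sums over all genes lay between 3571492 and 4058199 in LPS samples and between 2469768 and 2790981 in the others. In such bulk samples, more cells that make a transcript and more transcript per cell cannot be told apart.

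Every tested antiviral ISG was called higher within 2 h of LPS, with the call of Ifi27 lost with equal totals and without replicate 2 or 3. A gene was tested only where 3 or more of the 27 samples reached 10 normalised read counts. Ifit1, Oasl1, Isg15, Isg20, Ifitm3 and Ifi205 passed this filter only through LPS samples, so their rises are in part built in by it. Of the 49 genes, 17 were called higher than untreated after 0.5 h and 38 after 1 h, beside 19.6% and 24.8% of all genes tested. After 2 h and after 4 h the count was 49, beside 26.9% and 25.9% of all genes. The median log2 fold change of the 49 genes was 0.02, 1.52, 3.96 and 4.08 in order of time. Over all genes tested it was -0.24, -0.30, -0.29 and -0.26. In the opposite direction, 8 of the 49 were called lower at 0.5 h (34.4% of all genes) and 4 at 1 h (39% of all genes), while 0 were called lower at 2 h or 4 h and 0 had an unadjusted limma p under 0.05 in that direction. At 2 h and at 4 h, the 3 LPS replicates lay above all 3 untreated replicates in 49 of 49 genes. The share of all genes tested with such a separation was not counted.

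The early counts depend on how libraries are scaled. Rescaling by median of ratios moved the median of all genes at LPS 0.5 h to 0.00 and gave 22 ISGs higher and 5 lower at that time, then 40 and 3 at 1 h. Scaling to equal totals moved that median to -0.73 and gave 13 higher and 22 lower at 0.5 h, then 30 and 8 at 1 h. Without replicate 2 or without replicate 3 in every group, 4 ISGs were lower at 0.5 h, and 11 were without replicate 1. At 1 h the count of lower genes was 2 without replicate 2 or 3 and 6 without replicate 1.

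**Figure D1:**
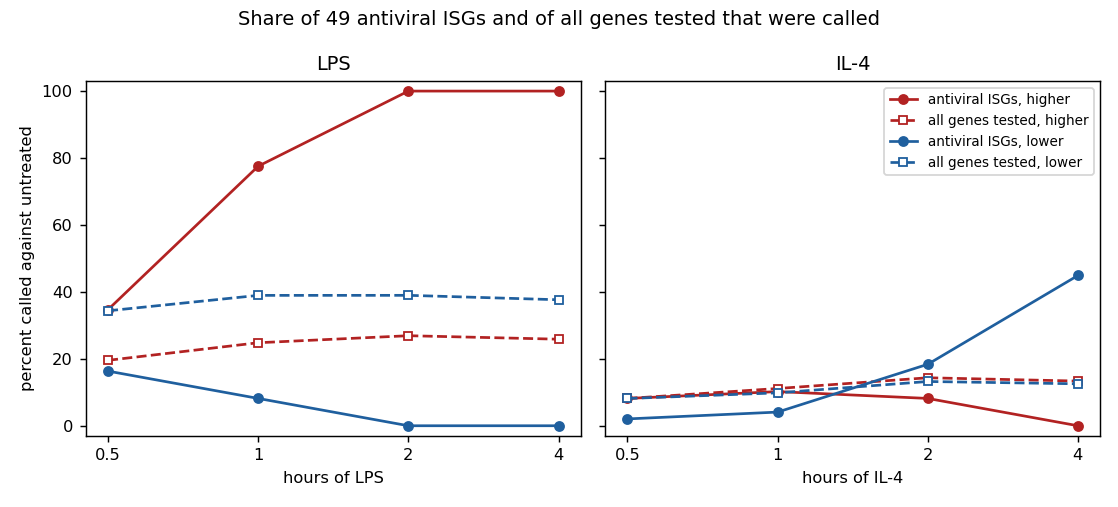
Percent of the 49 tested antiviral ISGs (filled circles, solid lines) and of all genes tested (open squares, dashed lines) called higher (red) or lower (blue) than untreated, by hours of LPS (left) or IL-4 (right). The share of ISGs called higher after LPS climbed from 34.7% at 0.5 h to 100% at 2 h, while after IL-4 the share called lower climbed from 2.04% to 44.9%.

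The order of onset was read from the first LPS time at which each gene was called higher. At 0.5 h these were 17 genes (19.6% of all genes tested had their first call then): Ifit1, Rsad2, Mx2, Oasl1, Oasl2, Isg15, Isg20, Cmpk2, Ifih1, Rtp4, Ifi203, Ifi204, Ifi205, Ifi207, Znfx1, Lgals3bp and Ube2l6. At 1 h another 21 followed (10.2% of all genes): Ifit2, Mx1, Oas1a, Oas3, Usp18, Ddx58, Dhx58, Ifi35, Xaf1, Herc6, Eif2ak2, Zbp1, Samd9l, Ifitm3, Mndal, Adar, Tor3a, Phf11b, Phf11d, Daxx and Dtx3l. The last 11 were first called at 2 h (7.82% of all genes): Oas1g, Oas2, Ifi44, Ifi27, Bst2, Sp100, Ms4a4c, Ms4a6d, Pnpt1, Nmi and Uba7. All 17 genes of the earliest class were called higher at each of the 4 LPS times. A later first call does not by itself show that a gene started later than another, since differences between genes were not tested. With a log2 fold change of at least 1 also required, the 3 classes held 13, 20 and 15 genes, and with equal totals 13, 17 and 18.

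Steps between neighbouring LPS times were tested directly. From 0.5 to 1 h, 39 of the 49 ISGs rose (25.1% of all genes) and 1, Ifi207, fell (24.6% of all genes). From 1 to 2 h, 48 rose (21.5% of all genes), the exception being Ifih1, which stood at 84.3% of its highest LPS mean already at 1 h. From 2 to 4 h, 5 rose (11.4% of all genes), namely Ifi44, Ms4a4c, Oas2, Oas1g and Ms4a6d, all first called at 2 h. That last count was 14 without replicate 1, where it also took in Ifit2, Mx1, Zbp1, Ifi205, Phf11b, Phf11d and Lgals3bp of the 2 earlier classes with Bst2 and Uba7, and 8 with a pseudocount of 8 (Zbp1, Phf11b and Phf11d added). It was 2, Ifi44 and Ms4a4c, without replicate 2 or without replicate 3. The highest LPS mean was at 2 h for 16 genes and at 4 h for 33.

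Replicate 1 stood apart from the others in the LPS course, in untreated cells and, by fibroblast markers, in every group. Among untreated samples it held the lowest value in 31 of the 49 ISGs, beside 43.2% of all genes tested. At LPS 1 h, replicate 1 held the highest value of its group in 41 of the 49 ISGs, beside 36% of all genes tested, and at LPS 2 h it held the lowest value in 39 of the 49, beside 48.4% of all genes. Fibroblast markers (Col1a1, Col1a2 and Col3a1) summed to 89 normalised read counts in replicate 1 of untreated cells, beside 58 and 37 in the other two. In replicate 1 of the 8 stimulated groups they summed to 130 to 207, beside 27 to 72 in replicates 2 and 3. The 4 neutrophil markers summed to 22 in replicate 1 at LPS 1 h and to 28 at LPS 2 h, beside 1 to 4 in the others at those times. The part of these transcripts in the calls was not tested, and that of replicate 1 was looked at only by leaving each replicate out in turn.

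**Figure D2:**
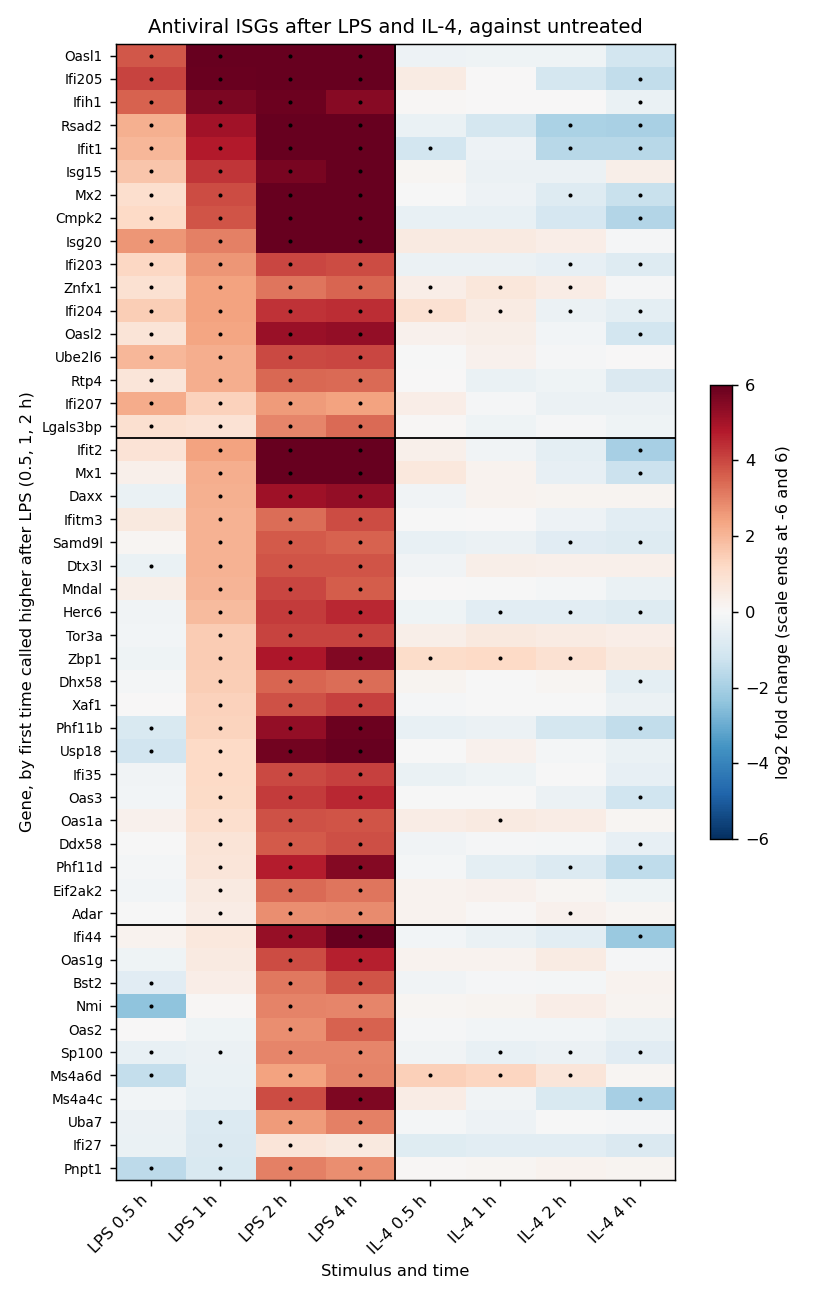
Log2 fold change against untreated (colour, red higher and blue lower) of the 49 tested antiviral ISGs (rows) at each LPS and IL-4 time (columns), with black points on called changes and horizontal lines between the genes first called higher at 0.5, 1 and 2 h of LPS. The LPS 2 h and 4 h columns are red with a point in all 49 genes. The IL-4 4 h column is mostly pale blue, with black points on the falls of 22 genes, while Zbp1 and Tor3a, among others, are above untreated without a point.

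ISG promoters carry the ISRE, whose core is a pair of GAAA units with any 2 bases between them (GAAANNGAAA). RefSeq promoters of the GRCm38.p6 build, running from 250 bases before to 50 bases after an annotated start, were matched by symbol to 41 of the 52 genes, 53 promoters in all. The other 11 were Mx1, Mx2, Oas2, Usp18, Dhx58, Ifi27, Rtp4, Zbp1, Ifi204, Tor3a and Ms4a6d. The ISRE core was found on either strand in a promoter of 19 of these 41 genes (46.3%), beside 4.08% of the 10767 tested genes with a promoter and 3.99% of all 27025 genes with one. The 19 include Ifit3, Ifit3b and Ifit1bl1, which were not tested and so have no onset class. Per promoter, 3.44% of all 32851 held it. By onset class it was found in 7 of 14 genes first called at 0.5 h, 7 of 16 at 1 h and 2 of 8 at 2 h. The gamma-activated site (GAS, TTCNNNGAA, the same letters on both strands), bound by STAT dimers, was found in 8 of the 41 genes (19.5%), beside 8.58% of tested genes. In Oas1a, Bst2, Eif2ak2 and Ifitm3 both kinds of letters were present, and in Bst2 and Ifitm3 they overlapped. A match of letters is a description of the promoter and not a measured binding site.

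For each onset class, the promoters of the pair of genes with the highest LPS mean among those with an ISRE core are printed on the strand of the gene, in lower case with the ISRE core in capitals. They show how the distance of the core from the start site differed among ISGs.
Ifih1, first called at 0.5 h, chr2:62646206-62646505 (minus strand), with the core at bases 33 to 42 after the start.
Ifih1: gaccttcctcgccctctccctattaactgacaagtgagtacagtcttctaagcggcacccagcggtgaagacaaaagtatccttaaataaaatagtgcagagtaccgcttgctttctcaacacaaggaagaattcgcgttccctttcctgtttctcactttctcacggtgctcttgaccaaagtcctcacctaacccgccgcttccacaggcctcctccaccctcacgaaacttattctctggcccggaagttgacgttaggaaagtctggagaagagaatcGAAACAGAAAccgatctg
Rsad2, first called at 0.5 h, chr12:26456403-26456702 (minus strand), with the core at bases -120 to -111 on the opposite strand.
Rsad2: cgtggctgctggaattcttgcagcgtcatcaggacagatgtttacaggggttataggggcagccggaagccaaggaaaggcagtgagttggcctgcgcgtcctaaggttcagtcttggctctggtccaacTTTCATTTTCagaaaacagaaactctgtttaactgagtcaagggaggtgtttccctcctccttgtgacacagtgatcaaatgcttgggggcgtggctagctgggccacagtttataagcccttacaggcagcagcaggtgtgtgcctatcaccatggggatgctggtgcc
Mndal, first called at 1 h, chr1:173880138-173880437 (minus strand), with the core at bases -36 to -27.
Mndal: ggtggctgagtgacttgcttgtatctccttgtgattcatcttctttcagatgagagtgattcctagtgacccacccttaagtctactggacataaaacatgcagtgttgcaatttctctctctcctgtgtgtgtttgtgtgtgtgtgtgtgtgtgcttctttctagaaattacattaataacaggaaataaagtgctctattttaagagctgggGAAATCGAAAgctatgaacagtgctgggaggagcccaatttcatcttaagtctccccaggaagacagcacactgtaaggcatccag
Eif2ak2, first called at 1 h, chr17:78882523-78882822 (minus strand), with the core at bases 19 to 28 after the start.
Eif2ak2: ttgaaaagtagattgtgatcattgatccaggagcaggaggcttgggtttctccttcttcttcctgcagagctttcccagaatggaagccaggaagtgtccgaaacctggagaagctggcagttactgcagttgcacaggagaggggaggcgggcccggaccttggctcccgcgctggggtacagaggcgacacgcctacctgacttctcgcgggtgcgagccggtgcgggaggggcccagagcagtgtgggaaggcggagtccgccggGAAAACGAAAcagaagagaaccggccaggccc
Oas1g, first called at 2 h, chr5:120887564-120887863 (minus strand), with overlapping cores that begin at bases -18 and -12.
Oas1g: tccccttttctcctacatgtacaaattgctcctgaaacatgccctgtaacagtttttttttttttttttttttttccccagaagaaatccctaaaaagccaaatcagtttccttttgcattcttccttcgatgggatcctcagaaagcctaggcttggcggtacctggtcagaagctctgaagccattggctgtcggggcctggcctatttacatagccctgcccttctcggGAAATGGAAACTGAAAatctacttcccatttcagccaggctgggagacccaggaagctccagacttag
Bst2, first called at 2 h, chr8:71537423-71537722 (minus strand), with overlapping cores that begin at bases -130 and -124.
Bst2: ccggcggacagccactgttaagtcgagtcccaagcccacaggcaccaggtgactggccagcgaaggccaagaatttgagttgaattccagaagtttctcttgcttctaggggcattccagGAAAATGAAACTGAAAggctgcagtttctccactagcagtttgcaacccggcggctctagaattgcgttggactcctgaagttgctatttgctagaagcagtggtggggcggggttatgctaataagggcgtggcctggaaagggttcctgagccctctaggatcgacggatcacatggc

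**Figure D3:**
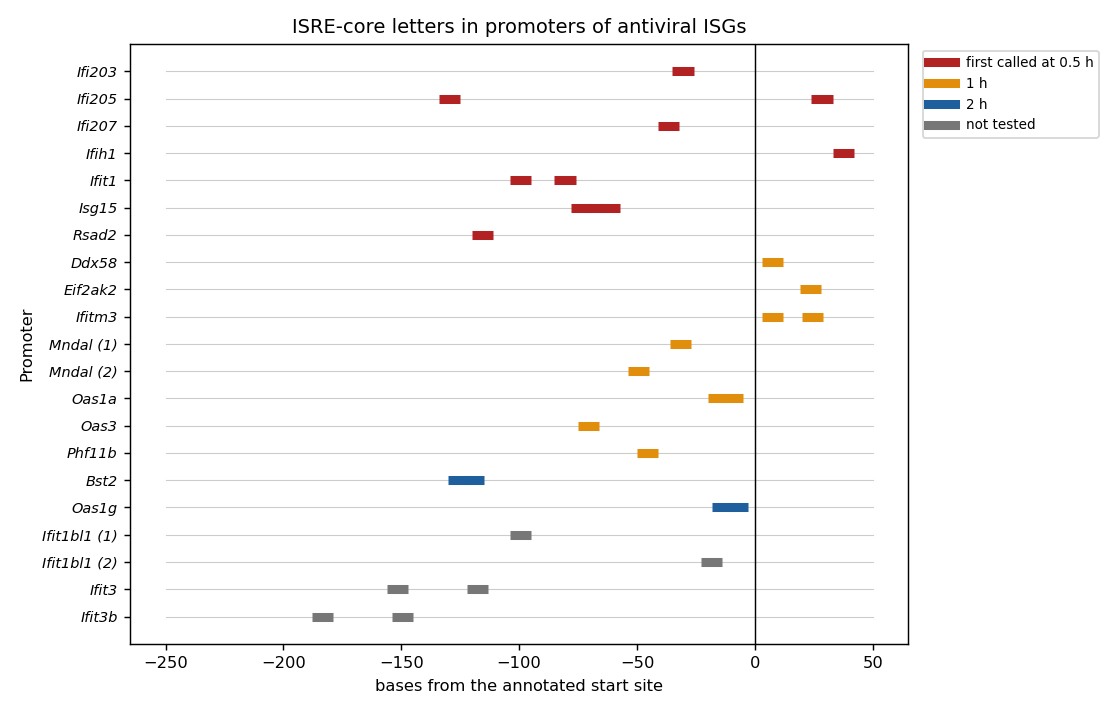
Position of the ISRE core (thick bars, bases from the annotated start site at the black line) in the RefSeq promoters of the 19 antiviral ISGs that held it, coloured by the LPS time at which the gene was first called higher, with grey for genes not tested. Every onset class had at least 1 gene with a core upstream of the start.

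RNA sensors and RNA-acting enzymes spanned all 3 onset classes. Of the 10 tested, 3 were higher at 0.5 h of LPS (19.6% of all genes), 9 at 1 h (24.8%), 10 at 2 h (26.9%) and 10 at 4 h (25.9%). Their median log2 fold change was -0.01, 1.50, 3.57 and 3.51 in order of time. Ifih1, which encodes MDA5, the cytosolic sensor of long double-stranded RNA, was at 170, 167 and 206 normalised read counts in the 3 untreated replicates. It read 3353, 1985 and 1352 after 0.5 h of LPS, 9702, 8746 and 8495 after 1 h, 10723, 10173 and 11050 after 2 h and 6961, 8091 and 8934 after 4 h. Every LPS replicate of Ifih1 was far above the untreated ones at 0.5 h, a rise of 3.52 ± 0.23 (SE) on the log2 scale or 11.5-fold (limma adjusted p 5.39e-09), and the mean at 4 h was 75.1% of that at 2 h. Ifih1 was at 201, 176 and 197 (0.5 h), 172, 173 and 204 (1 h), 171, 181 and 208 (2 h) and 109, 143 and 157 (4 h) with IL-4. The 4 h values lay below untreated by 0.42 ± 0.14 (adjusted p 0.0389), a call that was lost without any 1 of the 3 replicates. Gm39839, on the other strand within the span of Ifih1, had a mean of 254 over the 27 samples.

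Ddx58 encodes RIG-I, the sensor of RNA with a triphosphate end, and was first called at 1 h. Ddx58 was at 128, 154 and 156 untreated. Ddx58 read 134, 128 and 176 after 0.5 h of LPS, 282, 234 and 229 after 1 h, 1609, 1924 and 2073 after 2 h and 1950, 2291 and 2213 after 4 h. It overlapped untreated at 0.5 h, rose by 0.76 ± 0.15 at 1 h (adjusted p 3.22e-04, a call lost with equal totals) and by 3.87 ± 0.15 at 4 h, or 14.7-fold. Ddx58 read 136, 107 and 137 (0.5 h), 136, 130 and 148 (1 h), 145, 140 and 121 (2 h) and 97, 112 and 101 (4 h) with IL-4. Its 3 replicates at 4 h lay below untreated by 0.49 ± 0.12 (adjusted p 0.00829). Dhx58, which encodes the related helicase LGP2, rose by 1.47 ± 0.18 at 1 h and by 3.36 ± 0.18 at 4 h of LPS, and fell by 0.58 ± 0.19 at 4 h of IL-4 (adjusted p 0.0370).

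Zbp1, a sensor of left-handed (Z-form) nucleic acids, was at 15, 9 and 18 untreated. Zbp1 read 11, 14 and 9 after 0.5 h of LPS, 53, 34 and 37 after 1 h, 348, 470 and 456 after 2 h and 554, 739 and 800 after 4 h. Its LPS values did not leave the untreated range at 0.5 h, and then rose by 1.52 ± 0.25 at 1 h and 5.57 ± 0.25 at 4 h. Zbp1 read 34, 24 and 34 (0.5 h), 37, 33 and 27 (1 h), 31, 27 and 21 (2 h) and 25, 19 and 18 (4 h) with IL-4. After IL-4 it was thus above every untreated replicate at 0.5, 1 and 2 h, by 1.11 ± 0.25, 1.19 ± 0.25 and 0.90 ± 0.25 (adjusted p 0.00799, 0.00387 and 0.0175), and overlapped untreated at 4 h. Adar, the enzyme that edits adenosine to inosine in double-stranded RNA, was at 288, 289 and 336 untreated. Adar read 283, 329 and 298 after 0.5 h of LPS, 466, 400 and 390 after 1 h, 1742, 2188 and 2352 after 2 h and 2114, 2267 and 2215 after 4 h. Adar, among these sensors and enzymes, had the smallest called rise at 1 h, 0.46 ± 0.12 (adjusted p 0.00451), and reached 2.85 ± 0.12 at 4 h. That 1 h call was lost without replicate 2, and with equal totals the value fell below untreated without a call. Adar read 355, 329 and 369 (0.5 h), 342, 313 and 317 (1 h), 384, 354 and 363 (2 h) and 290, 347 and 365 (4 h) with IL-4. It was called only at 2 h (0.27 ± 0.09, adjusted p 0.0458).

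Pnpt1, which encodes a mitochondrial RNA-degrading phosphorylase, first fell. Pnpt1 was at 107, 141 and 150 untreated. Pnpt1 read 38, 48 and 47 after 0.5 h of LPS, 70, 69 and 70 after 1 h, 812, 1209 and 1271 after 2 h and 705, 1059 and 1033 after 4 h. All 3 replicates lay below untreated at 0.5 h and 1 h, by 1.55 ± 0.20 and 0.90 ± 0.20 (adjusted p 8.73e-06 and 8.66e-04), and above it at 2 h and 4 h, by 3.03 ± 0.20 and 2.79 ± 0.20. Pnpt1 read 115, 148 and 149 (0.5 h), 151, 132 and 151 (1 h), 141, 168 and 154 (2 h) and 132, 151 and 159 (4 h) with IL-4, and it was not called. The exonuclease gene Isg20 rose by 2.64 ± 0.38 at 0.5 h and by 6.90 ± 0.38 at 4 h of LPS from an untreated mean of 3.67. The helicase gene Znfx1 rose by 0.91 ± 0.12 at 0.5 h of LPS and was also higher at 0.5, 1 and 2 h of IL-4, by 0.42 ± 0.12, 0.66 ± 0.12 and 0.46 ± 0.12. The remaining pair, Eif2ak2 (PKR, a kinase that halts translation on double-stranded RNA) and the restriction factor Samd9l, rose from 1 h of LPS, by 1.47-fold and 4.28-fold. The 1 h call of Eif2ak2 was lost without replicate 2, and with equal totals its value lay below untreated, also without a call.

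The IFIT family binds foreign RNA ends and holds back viral translation. Ifit1 was at 7, 8 and 11 untreated. Ifit1 read 71, 34 and 20 after 0.5 h of LPS, 349, 257 and 180 after 1 h, 1682, 1542 and 1687 after 2 h and 1291, 1248 and 1182 after 4 h. It was above untreated in every LPS replicate from 0.5 h (1.98 ± 0.33, adjusted p 1.30e-04) and rose 172-fold at 2 h, the highest of its LPS means. Ifit1 read 5, 4 and 2 (0.5 h), 7, 7 and 6 (1 h), 2, 2 and 2 (2 h) and 2, 2 and 2 (4 h) with IL-4. These lay below every untreated replicate at 0.5, 2 and 4 h. Since all IL-4 values at 2 h and 4 h were under 3, the fall is given as at least 2.89-fold at both times against a floor of 3 normalised read counts (adjusted p 2.76e-04 and 3.06e-04).

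Ifit2 was at 19, 21 and 26 untreated. Ifit2 read 57, 31 and 33 after 0.5 h of LPS, 277, 105 and 63 after 1 h, 2375, 1411 and 1673 after 2 h and 2702, 2331 and 2275 after 4 h. It lay above untreated in all 3 replicates at 0.5 h without being called (0.80 ± 0.39, adjusted p 0.0937) and was called from 1 h (2.44 ± 0.39). Ifit2 read 38, 22 and 25 (0.5 h), 18, 17 and 21 (1 h), 19, 13 and 12 (2 h) and 5, 4 and 5 (4 h) with IL-4. At 4 h Ifit2 was lower than untreated by 2.01 ± 0.24, or 4.04-fold, the smallest adjusted p of any of the 49 ISGs at that time (2.84e-05). The other IFIT genes could not be tested. Ifit3 and Ifit1bl1 were listed at 0 in all 27 samples, and Ifit3b reached at most 4, in the LPS 2 h and 4 h groups only. Of the 76-base windows of GENCODE M21 transcripts, 40.7% of those of Ifit3 and 35.3% of those of Ifit3b also occurred in the other gene of this pair, and reads with several hits had been removed by the authors. For Ifit1bl1 the share found in another gene was 1.83%. The part of shared sequence in these zeros was not tested.

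OAS proteins are sensors of double-stranded RNA that activate RNase L, and the OAS-like genes Oasl1 and Oasl2 encode relatives of them. All 6 were higher at 2 h and 4 h of LPS, as were all 49 ISGs (26.9% and 25.9% of all genes). Their median log2 fold change was 4.06 and 4.60, and 2, the OAS-like pair, were called at 0.5 h (19.6% of all genes). Oasl1 was at 3, 1 and 4 untreated. Oasl1 read 67, 37 and 35 after 0.5 h of LPS, 313, 226 and 218 after 1 h, 1512, 1458 and 1498 after 2 h and 1351, 1282 and 1408 after 4 h. It had the second largest rise of the ISGs at 0.5 h among genes called, after Ifi205, with 3.73 ± 0.29 (adjusted p 4.66e-08), and reached 8.62 ± 0.29 at 4 h. Both genes had passed the filter only through LPS samples. Oasl1 read 2, 0 and 6 (0.5 h), 2, 3 and 1 (1 h), 5, 1 and 1 (2 h) and 0, 1 and 1 (4 h) with IL-4, beside 4 or less in every untreated replicate.

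Oas3 was at 32, 47 and 86 untreated. Oas3 read 25, 61 and 62 after 0.5 h of LPS, 122, 121 and 95 after 1 h, 617, 1127 and 1177 after 2 h and 915, 1370 and 1390 after 4 h. It overlapped untreated at 0.5 h and was above it in all replicates from 1 h (1.13 ± 0.37, adjusted p 0.0152). The 1 h call was lost without replicate 2, with no filter on low values and with equal totals. Oas3 read 48, 46 and 55 (0.5 h), 37, 60 and 55 (1 h), 31, 42 and 46 (2 h) and 14, 25 and 29 (4 h) with IL-4. The fall from untreated at 4 h was 1.19 ± 0.33 (adjusted p 0.0181), a call lost without replicate 2 or 3. Oas2 was first called later. It was at 387, 466 and 572 untreated. Oas2 read 393, 526 and 513 after 0.5 h of LPS, 328, 425 and 453 after 1 h, 2549, 3687 and 3652 after 2 h and 4030, 5814 and 6875 after 4 h. Its values at 0.5 h and 1 h overlapped untreated, and the rise was 2.79 ± 0.21 at 2 h with a further 0.74 ± 0.21 from 2 to 4 h (adjusted p 0.0191). Oas2 read 366, 427 and 556 (0.5 h), 360, 459 and 440 (1 h), 373, 442 and 454 (2 h) and 273, 323 and 497 (4 h) with IL-4, and it was not called. Oas2, Oas3, Oas1g and Oas1a lie side by side at chr5:120730333-120907525 (GRCm38), yet 2 of them were first called at 1 h and 2 at 2 h. In the step from 1 to 2 h all 4 rose, by 2.81 to 3.42. Oas1a and Oas1g share 47.3% and 36.6% of their transcript windows with each other, and reads with several hits had been removed by the authors, so the value of either is uncertain.

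ISG15 is a ubiquitin-like protein that is joined to other proteins by Uba7, Ube2l6 and Herc6 and removed by Usp18. All 5 genes were higher at 2 h and 4 h of LPS, as were all 49 ISGs (26.9% and 25.9% of all genes). All 5 had their highest LPS mean at 4 h, as did 33 of the 49 ISGs. Isg15 was at 3, 1 and 1 untreated. Isg15 read 13, 3 and 8 after 0.5 h of LPS, 60, 52 and 36 after 1 h, 159, 100 and 140 after 2 h and 269, 186 and 150 after 4 h. As every untreated value was at or under the floor, its rise is given as at least 16.4-fold at 1 h, 44.3-fold at 2 h and 67.2-fold at 4 h. At 0.5 h 1 LPS replicate equalled the highest untreated one, and the call (adjusted p 0.00323) was lost without replicate 3. Isg15 read 6, 2 and 0 (0.5 h), 1, 1 and 1 (1 h), 1, 1 and 1 (2 h) and 1, 3 and 3 (4 h) with IL-4, near the floor throughout.

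Usp18 also limits interferon receptor signalling. Usp18 was at 43, 52 and 69 untreated. Usp18 read 26, 27 and 19 after 0.5 h of LPS, 220, 109 and 83 after 1 h, 2551, 3433 and 3165 after 2 h and 3571, 4184 and 4283 after 4 h. It first fell below all untreated replicates at 0.5 h, by 1.14 ± 0.28 (adjusted p 0.00262), then rose by 1.21 ± 0.28 at 1 h and 6.19 ± 0.28 at 4 h, the latter 73.2-fold. Usp18 read 60, 49 and 50 (0.5 h), 64, 59 and 70 (1 h), 51, 38 and 62 (2 h) and 40, 34 and 50 (4 h) with IL-4, and it was not called. The other-strand gene Gm44148, which overlaps it, had a mean of 501 over the 27 samples, and whether counting used strand was not given in the sources used here.

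Herc6, the ligase of the mouse ISG15 pathway, was at 176, 177 and 197 untreated. Herc6 read 174, 161 and 147 after 0.5 h of LPS, 844, 642 and 588 after 1 h, 3203, 3676 and 3277 after 2 h and 4532, 4025 and 4142 after 4 h. It rose from 1 h, by 1.89 ± 0.13 (adjusted p 6.27e-09), to 4.52 ± 0.13 at 4 h. Herc6 read 146, 159 and 156 (0.5 h), 111, 105 and 135 (1 h), 111, 130 and 110 (2 h) and 111, 106 and 101 (4 h) with IL-4. These values lay below every untreated replicate at all 4 times, with calls at 1, 2 and 4 h of 0.65 ± 0.11, 0.65 ± 0.11 and 0.78 ± 0.11 (adjusted p at 4 h 8.60e-05). Uba7, the activating enzyme, was at 306, 349 and 379 untreated. Uba7 read 240, 280 and 297 after 0.5 h of LPS, 172, 199 and 217 after 1 h, 1234, 2743 and 2335 after 2 h and 2130, 3503 and 3031 after 4 h. It fell by 0.81 ± 0.24 at 1 h (adjusted p 0.00838), a call lost without replicate 2 or 3, before a rise of 2.53 ± 0.24 at 2 h. Uba7 read 302, 304 and 356 (0.5 h), 297, 260 and 285 (1 h), 329, 366 and 332 (2 h) and 226, 415 and 371 (4 h) with IL-4, and it was not called. Ube2l6, the conjugating enzyme, was early, with 2.00 ± 0.17 at 0.5 h of LPS and 4.02 ± 0.17 at 4 h.

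Of the 6 virus-directed effectors, 4 reached the highest levels. Per kilobase of gene span, the 4 highest means at LPS 4 h among the ISGs were those of Mx1 (1416 normalised read counts per kb), Rsad2 (913), Mx2 (521) and Cmpk2 (442). Bst2 and Ifitm3 of the same group had 151 and 80.8, below for example Uba7 (340). Rsad2 encodes viperin, an enzyme that makes a chain-terminating nucleotide, and was at 28, 34 and 48 untreated. Rsad2 read 224, 125 and 152 after 0.5 h of LPS, 2148, 1036 and 757 after 1 h, 13727, 11157 and 11164 after 2 h and 11227, 13258 and 13063 after 4 h. Each LPS group of Rsad2 stood clear of untreated, and the step was 2.87 ± 0.30 from 0.5 to 1 h, 3.33 ± 0.30 from 1 to 2 h and 0.06 ± 0.30 from 2 to 4 h (adjusted p 0.920). Rsad2 read 29, 22 and 31 (0.5 h), 26, 13 and 14 (1 h), 17, 8 and 5 (2 h) and 6, 23 and 4 (4 h) with IL-4. All values at 1, 2 and 4 h lay below every untreated one, with calls at 2 h (a fall of 1.89 ± 0.52) and 4 h. At 4 h replicate 2 was at 23 while the others were at 6 and 4. Cmpk2, its neighbour on chromosome 12, which encodes a mitochondrial nucleotide kinase, rose by 1.18 ± 0.27 at 0.5 h and 7.91 ± 0.27 at 2 h of LPS and fell by 1.77 ± 0.46 at 4 h of IL-4 (adjusted p 0.0112).

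Mx1 and Mx2 encode dynamin-like proteins that trap viral components, and they are neighbours on chromosome 16. Mx1 was at 80, 67 and 102 untreated. Mx1 read 112, 82 and 113 after 0.5 h of LPS, 792, 272 and 233 after 1 h, 17290, 14734 and 16096 after 2 h and 22585, 21391 and 23450 after 4 h. Its largest step was from 1 to 2 h, 5.43 ± 0.32, the largest 1 to 2 h step of the 49 ISGs, and its 1 h mean was only 1.92% of the 4 h mean. Mx1 read 174, 95 and 121 (0.5 h), 118, 91 and 83 (1 h), 77, 39 and 63 (2 h) and 40, 37 and 25 (4 h) with IL-4. It lay below all untreated replicates at 4 h only (adjusted p 0.00417). Mx2 was at 101, 91 and 141 untreated. Mx2 read 289, 174 and 218 after 0.5 h of LPS, 2643, 1466 and 1130 after 1 h, 15159, 15213 and 16763 after 2 h and 12582, 13260 and 12981 after 4 h. Unlike Mx1 it was called at 0.5 h (1.02 ± 0.25, adjusted p 0.00300), although the difference between the pair was not tested. Mx2 read 126, 96 and 99 (0.5 h), 93, 81 and 92 (1 h), 81, 62 and 53 (2 h) and 38, 48 and 43 (4 h) with IL-4. It was lower at 2 h by 0.75 ± 0.19 and at 4 h by 1.33 ± 0.19 (adjusted p 0.00774 and 1.20e-04). Bst2 (tetherin, which holds budding virus at the membrane) and Ifitm3 (which blocks virus entry from endosomes) rose less, by 3.77 ± 0.24 and 3.93 ± 0.30 at 4 h of LPS, and neither was called at an IL-4 time.

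PYHIN genes encode relatives of the DNA sensor AIM2 and of human IFI16, and in mouse they form a cluster on chromosome 1. Of the 5 tested, 4 were already higher at 0.5 h of LPS (19.6% of all genes) and all 5 at 1 h (24.8%). Ifi205 was at 5, 6 and 4 untreated. Ifi205 read 106, 92 and 95 after 0.5 h of LPS, 428, 310 and 358 after 1 h, 2407, 2687 and 2513 after 2 h and 2598, 3460 and 3843 after 4 h. It had the largest rise of all 49 ISGs at 0.5 h (4.05 ± 0.16, 16.6-fold, adjusted p 2.42e-11) and at 4 h (9.10 ± 0.16, 548-fold), from 6 or fewer normalised read counts. The gene had passed the filter only through LPS samples. Ifi205 read 9, 9 and 5 (0.5 h), 6, 5 and 4 (1 h), 3, 1 and 2 (2 h) and 0, 4 and 1 (4 h) with IL-4. At 4 h Ifi205 fell by 1.46 ± 0.47 although its replicates overlapped the untreated range (adjusted p 0.0354). Of its transcript windows 16.6% also occurred in Ifi211.

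Ifi207 was the most abundant ISG per kilobase in untreated cells (51.8 normalised read counts per kb) and followed its own course. Ifi207 was at 861, 894 and 1099 untreated. Ifi207 read 3673, 5205 and 4762 after 0.5 h of LPS, 2081, 2634 and 2731 after 1 h, 4158, 6350 and 6351 after 2 h and 3382, 5630 and 6792 after 4 h. All LPS groups were above untreated, but the 1 h values lay below all 3 of the 0.5 h values, a fall of 0.87 ± 0.23 between these times (adjusted p 0.00598, lost without replicate 2), before a rise of 1.16 ± 0.23 from 1 to 2 h. Ifi207 read 1070, 1218 and 1434 (0.5 h), 782, 997 and 913 (1 h), 647, 757 and 810 (2 h) and 760, 706 and 770 (4 h) with IL-4, and it was not called. Mndal was at 246, 314 and 353 untreated. Mndal read 288, 434 and 450 after 0.5 h of LPS, 1067, 1385 and 1272 after 1 h, 3930, 5079 and 5710 after 2 h and 2724, 3877 and 4957 after 4 h, with a first call at 1 h (2.03 ± 0.22, adjusted p 1.38e-06). Mndal read 291, 282 and 341 (0.5 h), 271, 313 and 321 (1 h), 235, 294 and 313 (2 h) and 186, 232 and 263 (4 h) with IL-4, and it was not called. Ifi204 had both directions after IL-4: it rose by 0.90 ± 0.11 and 0.49 ± 0.11 at the first pair of times, then fell by 0.35 ± 0.11 and 0.58 ± 0.11 at the last pair (adjusted p 6.54e-05 and 0.00149 at the first and last time). The related Ifi203 rose by 1.25 ± 0.22 at 0.5 h of LPS and fell by 0.79 ± 0.13 at 4 h of IL-4.

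Of the 7 nuclear body and transcription-linked ISGs, 0 were called higher at 0.5 h of LPS (19.6% of all genes) and 4 lower (34.4%), namely Sp100, Phf11b, Dtx3l and Nmi. Without replicate 2 or with replicates 2 and 3 averaged the count of 4 fell to Nmi alone. All 7 were higher at 2 h (26.9%) and 4 h (25.9%), with a median log2 fold change of 3.95 and 4.08. Sp100, a scaffold of nuclear bodies, was at 440, 453 and 540 untreated. Sp100 read 358, 344 and 351 after 0.5 h of LPS, 451, 331 and 336 after 1 h, 3446, 3569 and 3853 after 2 h and 3636, 3757 and 3538 after 4 h. The fall of 0.44 ± 0.12 at 0.5 h (adjusted p 0.00673) placed all 3 replicates below untreated but was lost without replicate 2 or 3, and the rise at 2 h was 2.92 ± 0.12. Sp100 read 428, 392 and 407 (0.5 h), 371, 333 and 340 (1 h), 380, 357 and 377 (2 h) and 243, 323 and 331 (4 h) with IL-4. It was below untreated in every replicate at every IL-4 time, with calls from 1 h on and a fall of 0.68 ± 0.11 at 4 h (adjusted p 4.73e-04). Daxx, a histone chaperone of the same bodies, rose by 2.14 ± 0.23 at 1 h and 5.27 ± 0.23 at 4 h of LPS. Phf11b and Phf11d, neighbours on chromosome 14, rose by 5.87 ± 0.24 and 5.49 ± 0.27 at 4 h of LPS and fell by 1.49 ± 0.38 and 1.54 ± 0.26 at 4 h of IL-4. Dtx3l, a ubiquitin ligase gene, and the interferon-induced Ifi35 and Nmi, whose products bind each other, rose by 3.78 ± 0.16, 4.08 ± 0.28 and 2.92 ± 0.22 at 4 h of LPS, with no call after IL-4. Parp9, on the other strand next to Dtx3l and overlapping it, had a mean of 699 over the 27 samples.

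The 8 remaining ISGs, whose antiviral roles are less well understood, held the smallest response. Ifi27 was at 46, 48 and 42 untreated. Ifi27 read 39, 33 and 30 after 0.5 h of LPS, 18, 28 and 29 after 1 h, 67, 83 and 75 after 2 h and 60, 70 and 79 after 4 h. It fell by 0.86 ± 0.20 at 1 h (adjusted p 0.00177) and ended 0.60 ± 0.20 above untreated at 4 h (adjusted p 0.0175), the smallest rise of the 49 ISGs, lost without replicate 2, without replicate 3 or with equal totals. Ifi27 read 23, 33 and 26 (0.5 h), 32, 31 and 24 (1 h), 33, 33 and 21 (2 h) and 15, 34 and 29 (4 h) with IL-4, below untreated in every replicate, with a call at 4 h. Ifi27l2a, on the other strand and overlapping Ifi27, had a mean of 83.8. Ifi44 and Ms4a4c were the late extreme, with 27.2% and 30.7% of their 4 h LPS mean at 2 h, and rises of 7.10 ± 0.37 and 5.60 ± 0.30 at 4 h. The other members of this set, Rtp4, Lgals3bp, Xaf1, Tor3a and Ms4a6d, rose by 2.99 to 4.12 at 4 h.

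**Figure D4:**
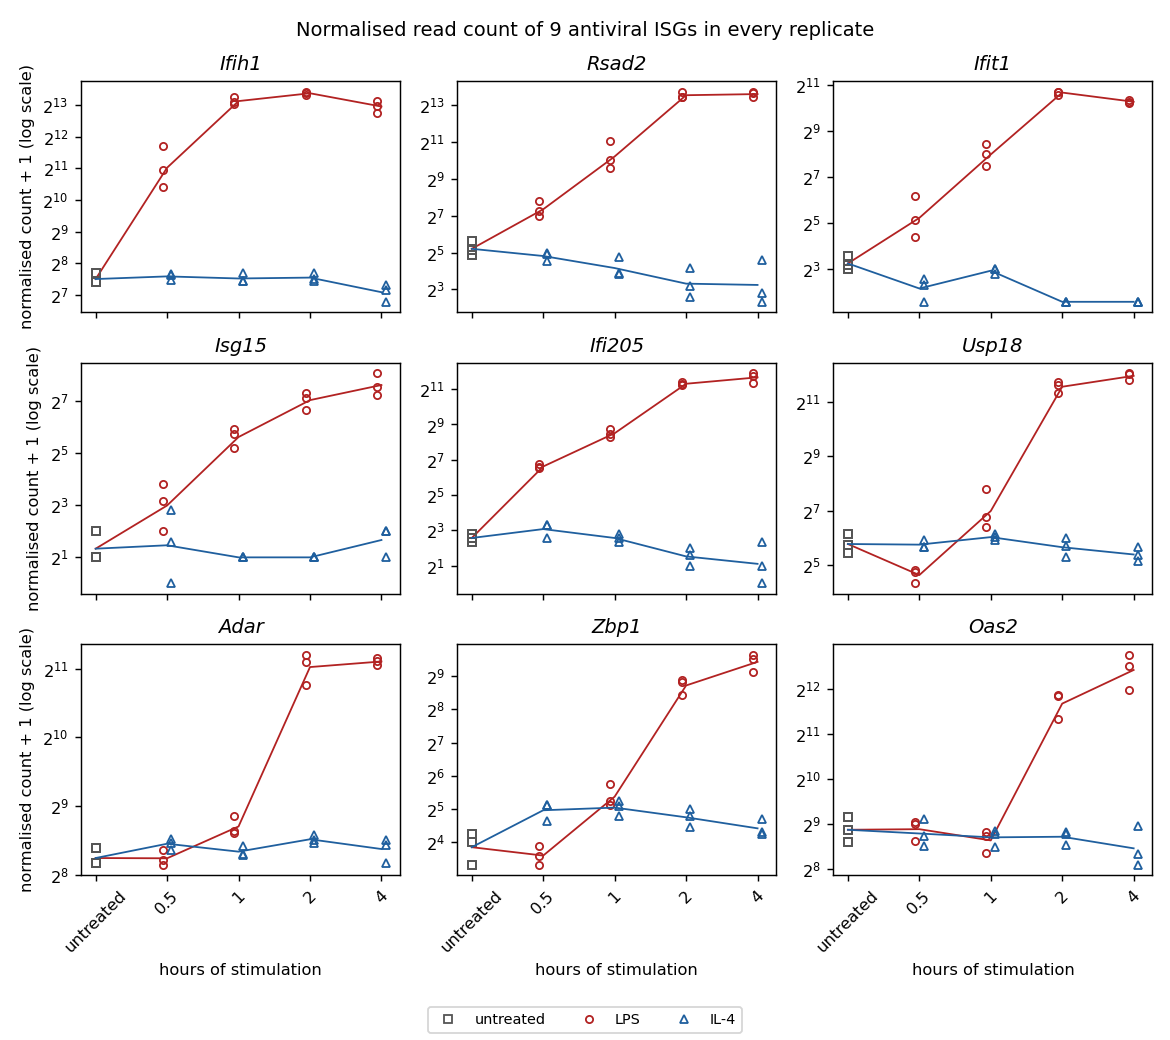
Normalised read count plus 1 (vertical axis, log scale) of 9 antiviral ISGs in each replicate (open symbols) of untreated (squares), LPS (circles) and IL-4 (triangles) samples by hours of stimulation, with lines through the geometric group means. Ifih1 was near its highest LPS level by 1 h, Usp18 dipped to 19 to 27 at 0.5 h before rising, and Oas2 had all 3 LPS replicates above every untreated one only at 2 h and 4 h.

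An early fall before the rise was seen in 10 of the 49 ISGs, chosen after their values were seen: Usp18, Bst2, Phf11b, Ms4a6d, Dtx3l and Nmi were called lower at 0.5 h of LPS, Ifi27 and Uba7 at 1 h, and Sp100 and Pnpt1 at both. All 10 were called higher at 4 h, as were all 49 ISGs (25.9% of all genes). The largest was in Nmi, which was at 54, 67 and 56 untreated and at 10, 7 and 15 after 0.5 h, a fall of 2.41 ± 0.22 or 5.33-fold (adjusted p 2.71e-07). Ms4a6d, a membrane protein gene of macrophages, went from 197, 242 and 270 to 61, 98 and 106 (2.71-fold lower). The falls of Nmi, Ms4a6d and Pnpt1 at 0.5 h were called under all 10 alternatives tried, while those of Bst2, Sp100 and Dtx3l were lost without replicate 2 or 3, and that of Usp18 without replicate 3 and that of Phf11b without replicate 2. Of all genes tested, 34.4% were called lower at 0.5 h and 39% at 1 h, beside 16.3% and 8.16% of the 49 ISGs. Early falls were thus called less often among the ISGs than among all genes. The share of all genes that fell and later rose was not counted.

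After IL-4 the antiviral ISGs had few calls at first and 22 falls by 4 h. As no untreated samples matched these times, IL-4 and further hours in culture cannot be told apart in them. After 0.5 h, 4 of the 49 were called higher and 1 lower than untreated (8.15% and 8.14% of all genes tested). After 1 h the counts were 5 higher and 2 lower (11.1% and 9.83%), and after 2 h they were 4 and 9 (14.3% and 13.2%). After 4 h, 0 were called higher and 22 lower (13.4% and 12.5%). At 4 h 1 ISG, Zbp1, was higher at an unadjusted limma p under 0.05. The median log2 fold change was -0.02, -0.03, -0.15 and -0.49 in order of time, beside -0.02, -0.01, 0.00 and 0.02 over all genes. Over the course, 26 of the 49 passed the moderated F test for any change, and the share of all genes that did was not counted. The 3 untreated samples are the same as in the LPS course, so the values of either course are given on their own. Same-numbered replicates deviated together in every pair of groups of the IL-4 course. A fit with this number as a block called 8 ISGs higher and 4 lower after 0.5 h and 4 lower after 1 h. It called 8 higher after 2 h, and 28 lower with 1 higher, Tor3a, after 4 h. The 28 include Oas2, Xaf1, Rtp4, Eif2ak2, Ifi207 and Mndal, which the main fit did not call at that time. How many of all genes tested the block fit called was not counted, so its counts have no background beside them.

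Single replicates weighed on these counts. The 22 lower at 4 h became 21 without replicate 1, 14 without replicate 2 and 7 without replicate 3, and all 7 (Ifit1, Ifit2, Mx2, Oasl2, Herc6, Ifi203 and Sp100) were among the 22. The calls of Rsad2, Mx1, Oas3, Cmpk2, Ifih1, Ddx58, Dhx58, Ifi44, Ifi27, Samd9l, Ifi204, Ifi205, Phf11b, Phf11d and Ms4a4c at 4 h thus needed replicate 3. Without replicate 2 the calls of Oas3, Ifih1, Ddx58, Dhx58, Ifi27, Samd9l, Ifi203 and Phf11b were lost, and without replicate 1 those of Ifih1, Dhx58, Ifi27 and Ifi205. The 9 lower at 2 h became 13, 3 and 2 in the same order, with Ifit1 and Herc6 lower in each case, and the 4 higher at 2 h became 3, 0 and 4. The 4 higher at 0.5 h became 4, 2 and 2, and the 1 lower became 3, 0 and 0. At 1 h the 5 higher became 5, 1 and 4, and the 2 lower became 4, 1 and 1. Scaling to equal totals gave 3 higher and 5 lower at 0.5 h, and 4 and 3 at 1 h, while median of ratios gave 5 and 3 at 1 h.

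The 22 ISGs lower at 4 h came from 7 of the 8 role groups in numbers from 2 to 4, with 1 from ISG15 conjugation, Herc6. Their falls ran from 0.42 (Ifih1) to 2.22 (Ifi44) on the log2 scale. Many were low to begin with: 3 had an untreated mean under 10 normalised read counts, 11 between 10 and 100 and 8 of 100 or more. Ifi44, an interferon-induced protein of unclear function, was at 10, 4 and 10 untreated and at 0, 2 and 1 at 4 h, a fall of at least 2.67-fold against the floor. Among the more abundant genes Ifi203, Ifi204, Sp100, Herc6 and Ifih1, each with an untreated mean over 150, fell by 0.79 ± 0.13, 0.58 ± 0.11, 0.68 ± 0.11, 0.78 ± 0.11 and 0.42 ± 0.14. The call of Ifih1 was lost without any 1 replicate, that of Ifi203 without replicate 2 and that of Ifi204 without replicate 3. In 23 of the 49 ISGs all 3 replicates at 4 h lay below all 3 untreated ones, and in 2, Tor3a and Dtx3l, above. How many of all genes tested were separated in this way was not counted, so these counts have no background beside them.

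After IL-4, 8.16%, 10.2%, 8.16% and 0% of the 49 ISGs were called higher in order of time. Of all genes tested 8.15%, 11.1%, 14.3% and 13.4% were, so the share of ISGs was near or under that of all genes. Rises after IL-4 were thus few, and the genes were picked out after their values were seen. Ms4a6d had the largest: from 197, 242 and 270 untreated it read 571, 665 and 661 (0.5 h), 512, 588 and 621 (1 h), 318, 424 and 419 (2 h) and 228, 266 and 276 (4 h) with IL-4. It was above untreated in every replicate through 2 h, by 1.42 ± 0.14 at 0.5 h, 1.28 ± 0.14 at 1 h and 0.71 ± 0.14 at 2 h (adjusted p 7.57e-06, 1.22e-05 and 0.00159), and overlapped it at 4 h. At 0.5 h the same gene fell after LPS. Zbp1 and Znfx1 were higher at the same 3 times, Ifi204 at 0.5 h and 1 h, Oas1a at 1 h (0.52 ± 0.16, adjusted p 0.0375) and Adar at 2 h. The call of Ms4a6d held without each replicate at 0.5 h and 1 h and was lost without replicate 2 at 2 h. The calls of Zbp1 and Znfx1 were lost without replicate 2 at all 3 times and without replicate 3 at 0.5 h, that of Zbp1 also without replicate 1 at 2 h, and that of Znfx1 also without replicate 1 at 0.5 h. The calls of Oas1a were lost without replicate 1 or 2, of Adar without any 1 replicate, and of Ifi204 at 1 h without replicate 2 or 3.

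**Figure D5:**
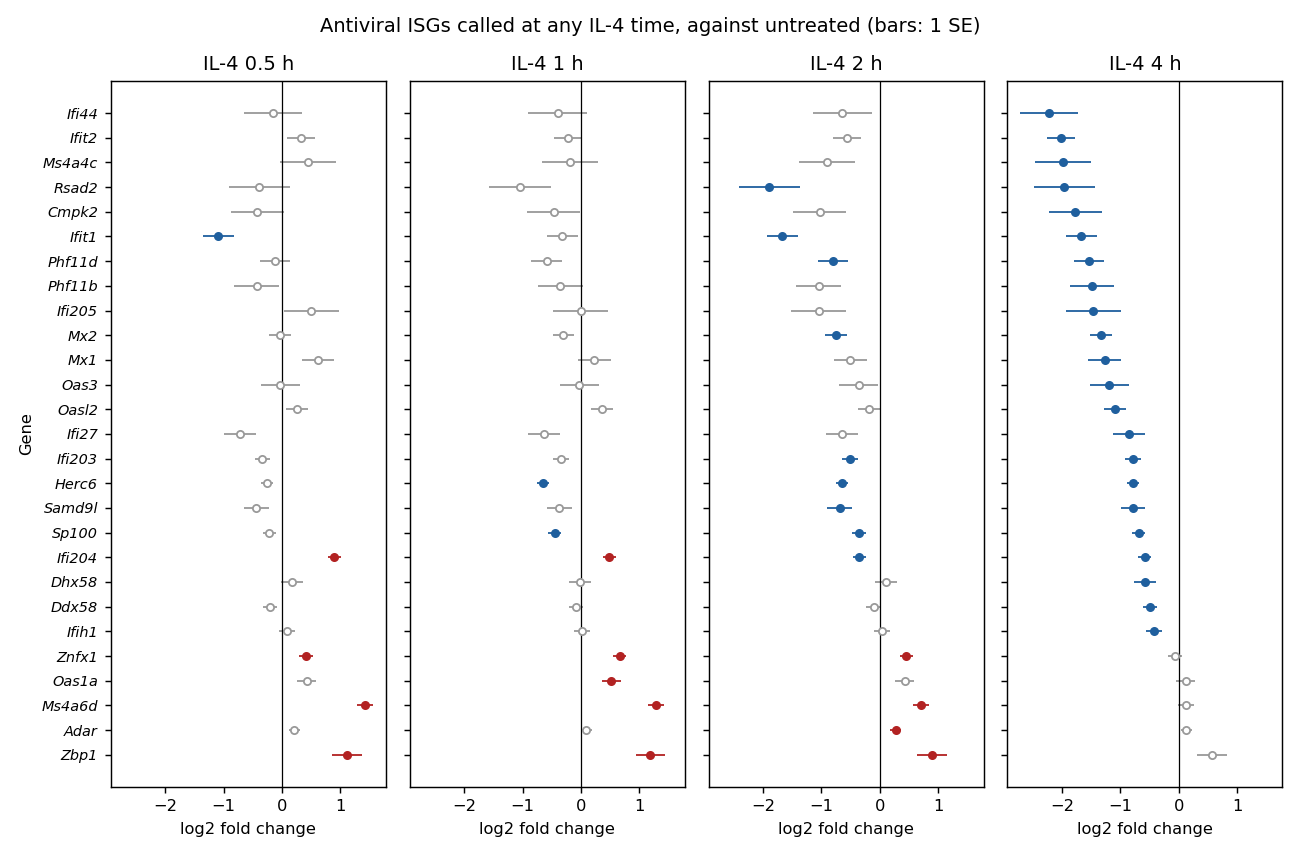
Log2 fold change against untreated (horizontal axis) with 1 SE (bars) of the 27 antiviral ISGs called at any IL-4 time, ordered by the 4 h value, with called rises in red, called falls in blue and open grey circles where not called. Blue points fill the 4 h panel for 22 genes, while the red points of Ms4a6d, Zbp1 and Znfx1 lie in the first 3 panels.

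Compared directly at the same time, 17 of the 49 ISGs were higher after LPS than after IL-4 at 0.5 h (18% of all genes tested), 37 at 1 h (24%), 49 at 2 h (26.4%) and 49 at 4 h (26.1%). At 0.5 h 6 were lower after LPS (35.8% of all genes) and at 1 h 2 were (40.5%). Equal totals gave 12 higher and 18 lower at 0.5 h, and 31 and 7 at 1 h, and median of ratios gave 21 and 5, then 42 and 2. The median difference, LPS minus IL-4, was 0.19, 1.49, 4.03 and 4.57 on the log2 scale in order of time, beside -0.23, -0.33, -0.34 and -0.36 over all genes. The genes lower after LPS at 0.5 h were Ms4a6d, by 2.86 ± 0.16 (adjusted p 6.73e-13), Nmi, Pnpt1, Zbp1, Usp18 and Eif2ak2, and Ms4a6d and Pnpt1 were still lower at 1 h. At 4 h the smallest difference was 1.46 (Ifi27) and the largest 10.56 (Ifi205).

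Of 18 genes of the pathway that leads from TLR4 to interferon signalling, 8, 15, 14 and 13 were higher at the 4 LPS times in order (19.6%, 24.8%, 26.9% and 25.9% of all genes), and 4, 1, 2 and 1 were lower (34.4%, 39%, 39% and 37.6%). Their median log2 fold changes were 0.50, 0.89, 1.81 and 1.62. After IL-4, 4, 5, 4 and 4 were higher (8.15%, 11.1%, 14.3% and 13.4% of all genes) and 2, 3, 3 and 2 lower (8.14%, 9.83%, 13.2% and 12.5%) in the same order. Ifnb1, the gene of interferon-β, was at 0, 0 and 0 untreated. Ifnb1 read 10, 2 and 3 after 0.5 h of LPS, 17, 16 and 5 after 1 h, 2, 1 and 0 after 2 h and 0, 0 and 0 after 4 h. It was therefore seen in all 3 replicates only at 0.5 h and 1 h of LPS (adjusted p 0.00192 and 3.35e-05), and it was listed at 0 in all 12 IL-4 samples. Ifnb1 had passed the filter only through LPS samples, so its rise is in part built in by it. Stat2, a subunit of the interferon-activated complex, had a mean of 221 ± 25.7 untreated (SD, n = 3), 120 ± 16.5 at 0.5 h of LPS and 3484 ± 151 at 4 h. Irf7, an interferon-induced activator of interferon genes, went from 22.0 ± 2.65 to 43.0 ± 14.2 at 1 h and 1337 ± 306 at 4 h of LPS. After IL-4, Irf7 was higher at all 4 times, by 1.45 to 1.97 (adjusted p at 4 h 3.30e-05), and so was Stat2, by 0.71 to 1.04.

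Gene span, untreated level and later size of response were set beside the onset class. The median gene span was 14672 bases in the 0.5 h class, 20367 in the 1 h class and 18989 in the 2 h class, and the median untreated mean was 39, 61.7 and 67.7 normalised read counts. The median log2 fold change at 4 h of LPS was 5.46, 4.08 and 3.04. Since a class is set by calls in the same course, this order of medians is a description and was not tested. Neighbouring genes shared a class in part. Rsad2 and Cmpk2 were both first called at 0.5 h and lie at chr12:26442743-26456452 and chr12:26469215-26479837. Of the chromosome 1 cluster Ifi203, Ifi204, Ifi205 and Ifi207 were first called at 0.5 h and Mndal at 1 h, although Mndal was called at 0.5 h with median of ratios and without replicate 1.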

How the data were processed

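BMDMs were differentiated in culture, kept for 1 h with DMSO and stimulated, and their chromatin-associated RNA was made into random-primed Smart-seq2 libraries that were sequenced single-end. GEO's labels give the library source as single cell, but the samples are bulk per the study's methods. Per those methods the authors mapped reads to mm10 with TopHat2 2.1.1 (version per the submitters' processing notes) against RefSeq, removed multi-mapping and blacklisted reads, the notes listing bedtools 2.29.2 and R 3.6.2, and counted reads per gene on the GRCm38.p6 annotation. The deposited values are the authors' counts after scaling between libraries on invariant genes, rounded to whole numbers, and are treated here as a score and not as raw counts. A gene was tested where 3 or more of the 27 samples reached 10 normalised read counts, on the log2(value + 1) scale with limma 3.58.1 (R 4.3.3), with a mean-variance trend and Benjamini-Hochberg adjustment at a threshold of 0.05. Fold changes on this scale understate the change of genes with low values. The LPS course and the IL-4 course were fitted apart, each with its 12 stimulated samples and the same 3 untreated ones, and the direct comparison of LPS with IL-4 used all 27 samples. The impulse model with which the study tested its courses was not run here. Where all replicates of a group were at 3 or lower, the fold is a bound against 3.

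ISGs named with full values were the 11 picked for their roles, the 3 with the highest LPS mean in each onset class, the 3 with the largest and the 3 with the smallest 4 h LPS change, and the 5 with the smallest p among those called lower at 4 h of IL-4. The members and lists were chosen with earlier results of these data known. The values of 1 pathway gene are not reported here. Same-numbered replicates were checked for deviating together from their group means. In the IL-4 course all 30 correlations between groups were over 0.1 (0.207 to 0.713), so the numbers were taken to pair the samples there. Counts with the replicate number as a block stand beside the main ones where they differ by over 1.5 times. Errors, adjusted p-values and statements that a gene was not called come from fits without the block, for IL-4 as for LPS. Transcript windows shared between genes were counted in GENCODE M21 transcripts, and promoters came from RefSeq. Alternatives tried were a pseudocount of 8, no filter on low values, a mean of at least 50, median-of-ratios scaling, equal totals, the replicate block, leaving out each replicate number, and averaging replicates 2 and 3. The smallest rounded values and the low counts of some genes limit precision, and the depth of the libraries is unknown.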

Additional observations from a re-analysis of the deposited data

How the results depend on the processing

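Over the 15 LPS, IL-4, step and LPS against IL-4 comparisons, 465 changes of single ISGs were called. Their values under the alternatives kept call and direction 4403 times, kept the direction but lost the call 219 times and changed direction 3 times. Losses were most frequent without replicate 2 (59), without replicate 3 (47) and with replicates 2 and 3 averaged (43), and 12 came without replicate 1. All 3 changes of direction came with equal totals, which lost 25 further calls: Adar LPS 1 h turned to -0.12, Eif2ak2 LPS 1 h to -0.026 and Adar LPS against IL-4 1 h to -0.11, each without a call, and the cause was not tested. The counts of ISGs higher than untreated at 2 h and 4 h of LPS stayed within 1.5 times of the main count under every alternative tried. For counts that moved more the cause was not tested. Shares of all genes called were counted for the main fit only, so counts under the alternatives have no background beside them.

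With equal totals, 22 ISGs were lower at 0.5 h of LPS in place of 8, 8 at 1 h in place of 4, 5 at 0.5 h of IL-4 in place of 1, 18 lower after LPS than after IL-4 at 0.5 h in place of 6 and 7 at 1 h in place of 2. Equal totals also gave 8 ISGs rising from 2 to 4 h of LPS in place of 5 and 18 first called at 2 h in place of 11. Median-of-ratios scaling gave 5 ISGs lower at 0.5 h of LPS. A pseudocount of 8 gave 8 rising from 2 to 4 h of LPS, and no filter gave 2, with 4 lower at 2 h of IL-4 in place of 9. With replicates 2 and 3 averaged, 4 ISGs were lower at 0.5 h and 2 at 1 h of LPS, 0 fell from 0.5 to 1 h and 2 rose from 2 to 4 h. The same averaging gave, after IL-4, 0 lower at 0.5 h, 3 higher and 1 lower at 1 h, 2 higher and 2 lower at 2 h and 13 lower at 4 h.

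Leaving out 1 replicate number at a time gave 4 to 11 lower at 0.5 h and 2 to 6 lower at 1 h of LPS, 0 to 3 falling from 0.5 to 1 h and 2 to 14 rising from 2 to 4 h. After IL-4 it gave 2 to 4 higher and 0 to 3 lower at 0.5 h, 1 to 5 higher and 1 to 4 lower at 1 h, 0 to 4 higher and 2 to 13 lower at 2 h, and 7 to 21 lower at 4 h. From 2 to 4 ISGs were lower after LPS than after IL-4 at 1 h.

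With the replicate block, 8 ISGs were higher and 4 lower at 0.5 h of IL-4, 4 lower at 1 h, 8 higher at 2 h and 1 higher at 4 h. In the LPS course 29 of 30 correlations between same-numbered replicates were over 0.1 (lowest 0.0897, highest 0.596). As the margin of 0.1 was not met throughout, the number was not taken to pair samples in that course. All were positive, however, and the labels do not say whether same-numbered samples there share a culture or day. The block then gave 3 falling from 0.5 to 1 h and 10 rising from 2 to 4 h, and it moved no other count of ISGs by over 1.5 times.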

Other observations

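RefSeq lists Mnda and Pyhin1 as synonyms of Ifi211 and Ifi209, PYHIN genes of the same chromosome 1 cluster that the deposited table holds under the newer symbols. They were not counted among the antiviral ISGs. The mean of Ifi211 was 29.3 normalised read counts untreated, 310, 646, 2017 and 2116 over the LPS times in order, and 73.3, 50.3, 27.7 and 17.7 over the IL-4 times. The mean of Ifi209 was 57.7 untreated, 28.3, 116, 2225 and 3885 after LPS, and 50.3, 45.3, 30.7 and 25.3 after IL-4. Both were among the 13901 genes tested, but their calls are not given here.

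Replicate 1 was the lowest of the 3 untreated samples in 31 of the 49 ISGs (43.2% of all genes tested) and the highest in 4 (26.9%). At 4 h of LPS it was the lowest in 38 (41.6%), and at 4 h of IL-4 in 26 (46.1%).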
